A study of Mus musculus with 4 samples.

Results

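Teratomas grown from Snai1 knockout mouse embryonic stem cells were set against embryoid bodies of the same genotype, with 1 array for each, so 2 of the series' 4 arrays carry the comparison. Of the 45037 non-control probe sets on the arrays, the 34945 that name 1 gene were used, and they describe 18193 genes. The embryoid bodies were started in hanging drops, moved to suspension in medium without directed differentiation and taken at day 5. The teratomas grew in nude mice, which were male and 6 weeks old when 1000000 stem cells were placed under the skin of their hind limbs, and the tumours were taken at week 6. The remaining 2 arrays hold the same sample kinds from control cells, labelled F/F, and serve here as the reference for how far the difference is shared. Embryoid body RNA was purified on RNeasy columns and teratoma RNA with Trizol, and 250 ng of each was amplified and labelled. Age, host and extraction therefore differ together and cannot be told apart. The labels do not say whether the knockout line is 1 clone or whether a tumour RNA came from 1 or several animals. A tumour also holds host vessels, stroma and immune cells, and a nude mouse lacks a functional thymus but keeps macrophages, granulocytes and B cells. RNA of the graft and of the host cannot be told apart in these values.

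An embryoid body is a ball of differentiating stem cells that passes through stages like those of the early embryo, from epiblast through primitive streak to the first endoderm, heart and blood cells. A teratoma is a benign tumour of pluripotent cells that contains maturing tissues of all germ layers, such as brain, muscle, cartilage, skin and airway lining. Snai1 encodes a zinc-finger repressor that lowers E-cadherin and helps epiblast cells leave the epithelium at gastrulation.

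All values are log2 RMA levels, and a difference is the teratoma level minus the embryoid body level on that scale. A gene was represented by its brightest probe set over the 4 arrays. Each array's floor was its median probe set level, 4.73 for the knockout embryoid body and 5.04 for the knockout teratoma. Where a gene was above the floor on 1 array only, its difference is a bound against the other array's floor, written as "at least". A gene was called higher or lower at 2-fold or more. Of 1038 listed genes on the arrays 66 were in more than 1 gene list, so the counts of different lists overlap. Counts and medians of a list cover its measured genes, those that either knockout array placed above its floor. A gene above it on 1 array alone could differ in that direction only, so these counts describe the measured genes and not the whole list. Such genes made up 14 of 28 measured genes in the neuron list, 8 of 17 for transmitters and 8 of 19 for interferon-stimulated genes. For skeletal muscle they were 15 of 30, for stratified epithelium 12 of 21 and for airway genes 9 of 16. No replicate exists, so no test was made. As a measure of spread, probe sets of 1 gene differed with a pooled SD of 0.65 over 4358 genes, which covers probe differences and not the difference between cultures or tumours.

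Of the 12936 genes with a difference, 2566 were higher in the knockout teratoma at 2-fold (19.8%) and 2564 lower (19.8%). Larger differences lay mostly on one side: an 8-fold or greater difference was seen upward in 620 genes (4.79%) and downward in 135 (1.04%). The median difference over the measured genes was -0.15. The even split at 2-fold depends on the scaling: with both arrays centred on their median 2036 genes were higher and 3786 lower, and with quantile normalization 2397 and 2640. At 8-fold more genes stayed higher than lower under both, 481 against 207 when centred and 558 against 150 after quantile normalization. In the control pair of arrays, 2098 of 12956 genes were higher at 2-fold (16.2%) and 2456 lower (19.0%), while 423 passed 8-fold upward (3.26%) and 94 downward (0.726%). A further 5257 genes were below the floor on both knockout arrays. Control probe sets for RNA also differed between the sample kinds. The 18S ribosomal RNA middle probe set read 12.39 in the knockout embryoid body and 13.51 in the knockout teratoma. The 3′ minus 5′ gap of Actb was 0.31 in the knockout embryoid body and 0.85 in the knockout teratoma, and that of Tfrc was -0.69 and 1.19. The part of RNA integrity in the differences below was not tested. In bulk samples such as these, fewer cells of a type and less RNA per cell cannot be told apart.

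**Figure D1:**
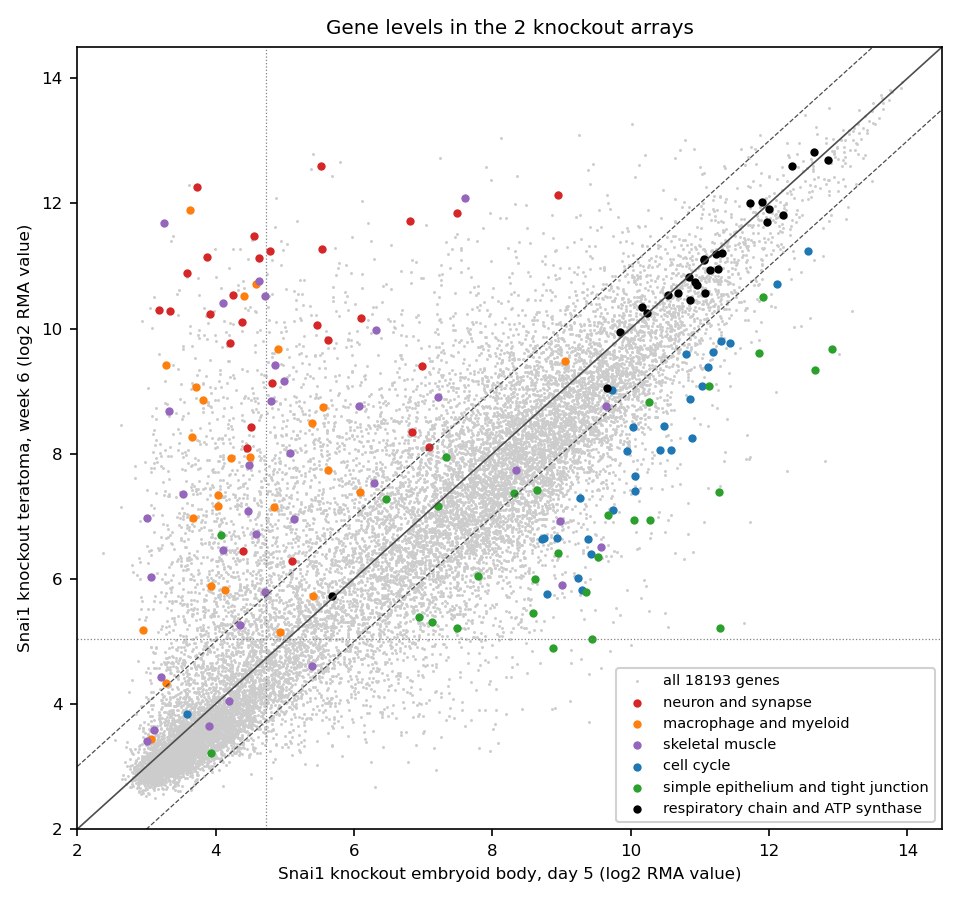
Levels of all 18193 genes in the knockout embryoid body (x axis) and the knockout teratoma (y axis), both log2 RMA values, with 6 gene lists in colour. Solid and dashed lines mark no difference and 2-fold, dotted lines mark the floors. Of the measured genes, all 28 neuron, 20 of 24 macrophage and 23 of 30 muscle genes were called higher, and 27 of 28 cell cycle and 23 of 28 simple epithelium genes were called lower.

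The targeted gene was checked first. Snai1 read 3.45 in the knockout embryoid body and 3.44 in the knockout teratoma, below both floors. It read 4.78 in the control embryoid body, just above that array's floor of 4.71, and 3.59 in the control teratoma. Low signal in all samples leaves this gene a weak check of the labels, and whether its probes lie in the deleted part is not given in the sources used here. Snai2, the related repressor of neural crest and mesenchyme, read 9.07 in the knockout embryoid body and 7.15 in the knockout teratoma, 3.8-fold lower, and was lower in the control tumour too (difference -2.16). Snai3 was at least 1.16-fold lower, a difference within the spread between probe sets.

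Genes of nervous tissue were much higher in the tumour. All 28 measured genes of the neuron and synapse list were higher, by a median of 4.97, and 23 were at least 8-fold higher. The control pair gave a median of 4.38 for that list, with 25 of 28 higher. Scg2, a granin of neuronal secretory vesicles, read 3.73 in the knockout embryoid body and 12.26 in the knockout teratoma, at least 185-fold higher. Mapt, the microtubule protein tau, read 4.56 and 11.48 and was at least 107-fold higher. Neither was above the floor in either embryoid body, while both were above it in both tumours. Snap25, a synaptic vesicle fusion protein, read 3.59 and 10.88 (at least 71.0-fold higher). Stmn3 and Tubb3, a stathmin and a tubulin of neurons, were above the floor on all 4 arrays and were 134-fold and 87.5-fold higher. All 17 measured genes for transmitters and their receptors were higher as well, with a median of 3.45 against 2.46 in the control pair. Slc17a6, the vesicular glutamate transporter, read 3.59 and 10.82, and Gad1, which makes GABA, read 4.75 and 10.35. Th, the rate-limiting enzyme of dopamine synthesis, read 3.86 and 9.24 in knockout cells and 4.26 and 7.39 in control cells. The peptide gene Npy read 4.83 and 8.58, against 5.29 and 5.99 in control cells.

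Glial genes followed the same direction. Of the 16 astrocyte genes, 13 were higher (median 3.96), and 11 of 13 measured oligodendrocyte genes were higher (median 2.44). The oligodendrocyte result depends on the probe set rule: with the mean of a gene's probe sets 7 of 13 were higher (median 1.10). Gfap, the astrocyte filament, read 4.52 in the knockout embryoid body and 11.41 in the knockout teratoma, at least 103-fold higher; Sparcl1, secreted by astrocytes, was at least 189-fold higher. Mbp, a main protein of myelin, read 4.87 and 12.08, but its 7 other measured probe sets ranged from -0.51 to 6.03, so its size depends on the probe set. Olig1, a regulator of oligodendrocytes, was at least 44.3-fold higher. Genes of neural progenitors were less uniform, with 10 of 16 higher and 1 lower (median 1.11). Sox2, expressed by stem cells and neural progenitors, was higher (9.49 and 11.33), whereas Sox3 was lower (7.72 and 6.44), and Nes, the progenitor filament, was level at 7.43 and 7.67. Of genes outside the lists, Rtn1, a reticulon of neuroendocrine cells, had the largest difference of any named gene above the floor on both arrays, from 5.41 to 12.79, or 167-fold.

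Skeletal muscle and heart genes lay on opposite sides. Of 30 measured skeletal muscle genes, 23 were higher and 3 lower (median 2.30), and 11 were at least 8-fold higher. Myh1, a fast adult myosin, read 3.26 in the knockout embryoid body and 11.68 in the knockout teratoma, at least 124-fold higher. Acta1, skeletal alpha actin, read 7.60 and 12.09, and Mb, the oxygen-binding protein myoglobin, read 4.71 and 10.53. Mb was dimmer in the control tumour (7.92). Actc1, the fetal and cardiac actin, went the other way, 8.90 and 7.07, as did Tnni1, the slow troponin I (8.97 and 6.93), while the fast form Tnni2 was 18.1-fold higher. Developmental forms were not all lower, however: Myh3 and Myh8, the embryonic and neonatal myosins, were at least 2.45-fold and 6.15-fold higher, and the adult myosin Myh4 was below the floor on both knockout arrays. Heart genes were mostly lower: 11 of 17 were lower and 1 was higher, with a median of -2.40. This count was partly set by the floor, as 11 of the 17 were above it on 1 array alone. With no floor 12 of 22 heart genes were lower and 2 higher (median -1.72). Myl7, the atrial light chain, read 10.01 and 4.95 (at least 31.3-fold lower), and Hand2, a heart and limb regulator, read 9.40 and 3.72. Of 17 smooth muscle and pericyte genes 8 were higher and 3 lower, the lower count being near the 19.8% of all measured genes.

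The bases before the starts of some of these genes show what the lists share in sequence, read from RefSeq promoters of build GRCm38.p6 over 250 bases upstream of each gene start. In total 17 short motifs were searched on both strands, and the motifs given here were chosen after the counts were seen. A match is a description of letters and not a site of binding. The E-box CAGCTG, the form that muscle regulators of the MyoD family bind, occurred before 11 of 25 measured skeletal muscle genes with a promoter in the table, against 14.7% of all genes with one. Capitals mark it before Mb (chr15:77022890-77022945, minus strand) and Acta1 (chr8:123894966-123895021, minus strand).
Mb: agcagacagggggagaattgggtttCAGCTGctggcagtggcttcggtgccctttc
Acta1: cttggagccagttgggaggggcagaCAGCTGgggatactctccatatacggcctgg

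**Figure D2:**
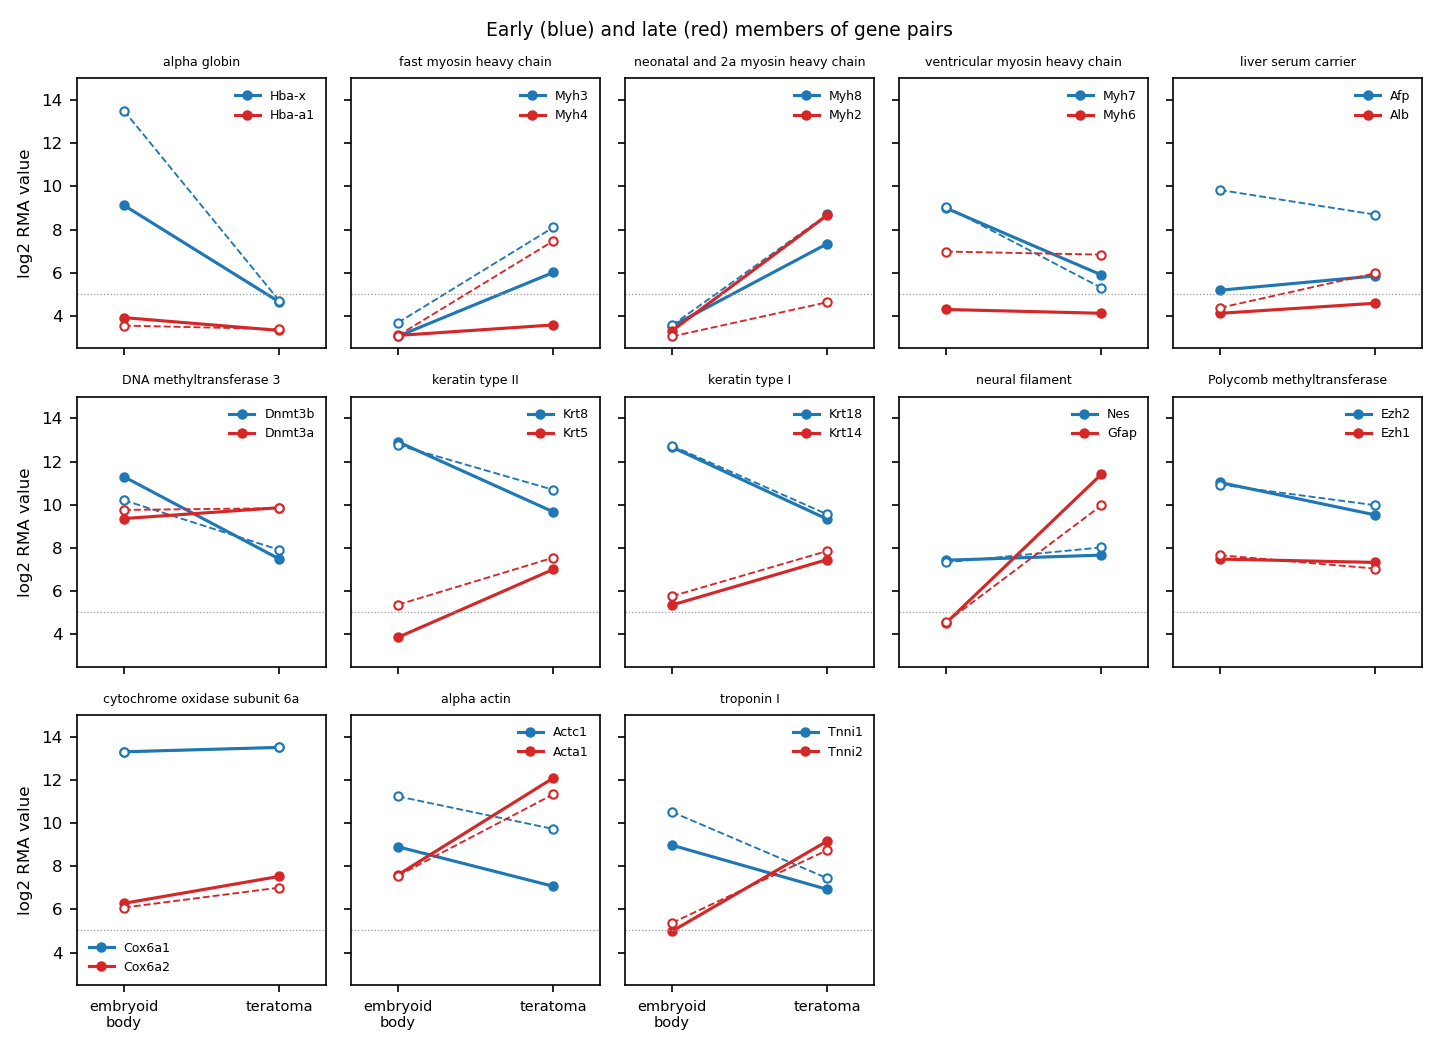
Levels (log2 RMA) of early (blue) and late (red) members of 13 gene pairs in embryoid body and teratoma, filled circles with solid lines for knockout and open circles with dashed lines for control cells; the dotted line is the knockout teratoma floor. Levels of different genes are not comparable with each other on this axis, and the pairs follow no single pattern in the knockout teratoma. Early Krt8, Krt18, Actc1 and Tnni1 are lower and late Krt5, Krt14, Acta1 and Tnni2 higher, but early Myh3 and Myh8 are also higher. Afp, Nes, Cox6a1, Dnmt3a and Ezh1 are within 2-fold, and late Hba-a1, Myh4, Myh6 and Alb are below the floor on both knockout arrays.

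Simple and stratified epithelium differed in direction. Of 28 measured genes of simple epithelium and tight junctions, 23 were lower and 1 higher, with a median of -2.40 in knockout cells and -0.95 in control cells. Cldn6, an embryonic claudin of tight junctions, read 11.30 in the knockout embryoid body and 5.21 in the knockout teratoma, 67.8-fold lower, and in control cells it read 10.37 and 6.13. Krt8 and Krt18, the keratin pair of simple epithelia, were 9.49-fold and 10.1-fold lower. Cdh1, E-cadherin itself, read 11.14 and 9.08 in knockout cells and 10.28 and 9.52 in control cells. Stratified epithelium was the other way: 13 of 21 genes were higher and 2 lower (median 1.5). Krt4, a keratin of mucosa, was at least 37.2-fold higher, Krt15 of basal cells was 26.6-fold higher, and Krt5 read 3.86 and 7.01. Airway genes had 12 of 16 higher (median 2.74). Bpifa1, an airway surface protein, read 5.68 and 12.44, and Muc5b, an airway mucin, read 5.05 and 9.55. Of 17 measured genes of motile cilia, 10 were higher, among them Dynlrb2, a dynein light chain (3.27 and 9.17, at least 21.6-fold). As 12 of the 17 were above the floor on 1 array alone, this count too was partly set by the floor. Gut genes were mixed, with 5 of 13 higher and 4 lower; the intestinal gene Vil1 was at least 5.89-fold lower and the stomach gene Tff1 was 3.03-fold higher.

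Connective tissue was higher in the tumour. Of 34 measured fibroblast and matrix genes, 24 were higher and 2 lower, with a median of 2.08 against 1.22 in control cells. Dcn, a small matrix proteoglycan, read 5.17 in the knockout embryoid body and 11.72 in the knockout teratoma, 93.7-fold higher, against 9.58 and 12.14 in control cells. Col3a1, a fibrillar collagen, read 7.24 and 12.73, against 13.02 and 13.40 in control cells. In both genes the knockout embryoid body was the lowest of the 4 samples, as it was for the secreted matrix proteins Postn and Lum: Postn read 5.91 and 9.84 in knockout cells and 11.85 and 10.55 in control cells, and Lum read 5.29 and 9.21 against 11.65 and 10.40. Endothelial genes had 10 of 23 higher and 2 lower (median 0.74, against -0.32 in control cells). With arrays centred on their median 7 were higher and 5 lower. The vessel markers Cdh5 and Pecam1 were 3.12-fold and 3.11-fold higher, and Sox17, shared by endothelium and endoderm, was 21.9-fold lower. Cdh5 lost its call with the mean of probe sets and Pecam1 with the floor at the 65th percentile. Cartilage had no one direction, with 3 of 11 measured genes higher and 4 lower; its marker Col2a1 read 8.35 and 7.01. Of 7 measured fat genes 5 were higher, while the adipocyte marker Adipoq was below the floor on both arrays.

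Genes of immune cells were mostly higher in the tumour. Of 24 measured macrophage genes, 20 were higher and none lower (median 2.85), and 12 were at least 8-fold higher. However, 15 of the 24 were above the floor in the tumour alone and could only be higher, so these counts were partly set by the floor. Lyz2, myeloid lysozyme, read 4.40 in the knockout embryoid body and 10.52 in the knockout teratoma (at least 55.1-fold higher), and the complement gene C1qa read 3.28 and 9.41. Ptprc, the pan-leukocyte antigen CD45, read 3.82 and 8.86 in knockout cells and 3.48 and 6.74 in control cells. Several B cell genes were bright in the knockout tumour. Of the 16 on the array 10 were measured and 8 of those were higher, but 5 of the 8 were above the floor in the tumour alone, so this count was largely set by the floor and is given as a description. Ighm, the heavy chain of IgM, read 4.97 and 11.25 in knockout cells but 4.42 and 5.11 in control cells, with its 2 other measured probe sets at differences of 0.00 and 4.67; its probe set name marks possible shared sequence. Ms4a1, the B cell antigen CD20, read 3.13 and 7.93, against 3.56 and 3.20, and Jchain, which links antibody units, read 3.35 and 8.10, against 3.21 and 3.38. The control tumour was thus below the floor for Ms4a1 and Jchain. Cd79a, a B cell receptor subunit, was below the floor on all 4 arrays. Of 18 T and NK cell genes on the array 15 were below the floor on both knockout arrays, Cd3e and Cd8a among them, and of the 3 measured only Thy1, which neurons and fibroblasts also express, was higher. Antigen presentation had 10 of 14 genes higher, and complement and acute phase 10 of 12. Embryonic globins were lower in the tumour, with the beta globins Hbb-bh1 and Hbb-y at least 35.6-fold and 23.1-fold lower. Hbb-y read 9.57 in the knockout embryoid body, against 13.25 in the control one. Of 10 measured genes of primitive blood 7 were lower, none higher (median -1.39, against -2.41 in control cells). Of these 10, 5 were above the floor in the embryoid body alone and could only be lower, so this count was partly set by the floor. A further 4 were below the floor on both knockout arrays. The adult alpha globin Hba-a1 was below the floor on every array. Hba-a2, another adult alpha globin, was above it in the knockout embryoid body and not in the knockout tumour. The adult beta globin Hbb-b2 was above it on both knockout arrays (difference 0.42).

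**Figure D3:**
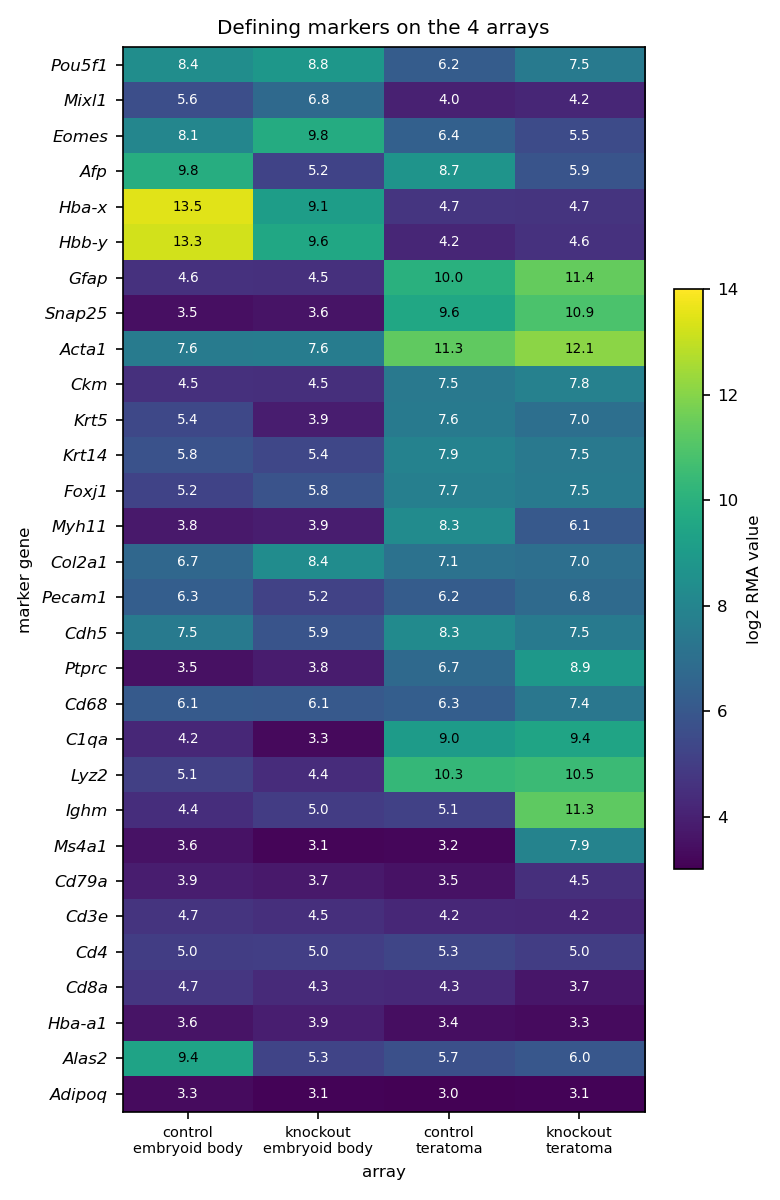
Level (log2 RMA, number and colour) of defining marker genes (rows) on each of the 4 arrays (columns). Hba-x and Hbb-y read 13.5 and 13.3 in the control embryoid body and 9.1 and 9.6 in the knockout one. Gfap, Snap25 and Acta1 are bright in both teratomas, and Ighm at 11.3 and Ms4a1 at 7.9 in the knockout teratoma.

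Interferon-stimulated genes were higher in 13 of 19 cases, none lower, with a median of 1.90 against 0.94 in control cells. Ifit3, an antiviral effector, read 4.69 in the knockout embryoid body and 7.90 in the knockout teratoma, higher by at least 3.17, against 5.33 and 6.21 in control cells. Rsad2, the antiviral protein viperin, read 5.62 and 8.73 in knockout cells, against 8.14 and 8.10 in control cells. Gbp3, a guanylate-binding protein, read 3.89 and 7.65, against 4.31 and 6.74. Both tumours carried these transcripts, and for Rsad2 the knockout embryoid body stood alone as the low sample. The interferon response element GAAANNGAAA was found upstream of 10 of the 16 measured interferon genes with a promoter in the table, against 3.46% of all genes. Capitals mark its matches, on either strand and overlapping before Gbp3, in Ifit3 (chr19:34583348-34583441, plus strand), Rsad2 (chr12:26456538-26456597, minus strand) and Gbp3 (chr3:142559974-142560039, plus strand).
Ifit3: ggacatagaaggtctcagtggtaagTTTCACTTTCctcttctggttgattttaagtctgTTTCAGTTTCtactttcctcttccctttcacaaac
Rsad2: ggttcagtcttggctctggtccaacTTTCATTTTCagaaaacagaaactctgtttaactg
Gbp3: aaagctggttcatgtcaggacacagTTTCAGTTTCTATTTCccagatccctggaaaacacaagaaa

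Secreted and stress-related genes were more mixed. Of 15 measured chemokine and receptor genes 8 were higher and 1 lower, and of 18 matrix proteases and inhibitors 8 were higher and 1 lower. Ctss, a protease of antigen-presenting cells, read 4.58 in the knockout embryoid body and 10.71 in the knockout teratoma, at least 62.8-fold higher, against 3.91 and 8.26 in control cells. Lcn2, an iron-binding protein of neutrophils and inflamed epithelium, read 3.89 and 10.09, against 4.39 and 6.61, and S100a8, a neutrophil calcium-binding protein, read 3.57 and 7.97, against 3.41 and 4.70. For these genes the knockout tumour was the brightest of the 4 arrays. Among 22 immediate early and heat shock genes 5 were higher, close to the 19.8% of all measured genes, and 2 lower. Fos, an early response factor, read 9.21 and 11.79, and Hspa1a, a heat shock chaperone, read 5.84 and 7.88, while the early response gene Ier2 read 10.57 and 8.79. The choroid plexus genes had 2 of 9 higher, also near the 19.8% of all measured genes, and 3 lower. Aqp1, a water channel, read 3.54 and 8.83, and Clic6, a chloride channel protein, read 11.35 and 7.89. Of 6 measured liver genes 3 were lower and 1 higher, the latter near the share over all measured genes, and 10 more were below the floor on both arrays. Of 19 eye genes on the array 15 were below it.

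Genes of the early embryo were lower. Of 16 measured epiblast genes 9 were lower, none higher (median -2.15, against -0.41 in control cells), and of 13 primitive streak genes 10 were lower (median -1.72, against -0.46). The streak count depends on the floor, as 7 of the 13 were above it in the embryoid body alone. With the floor at the 65th percentile 5 of 11 streak genes were lower (median -0.49). Eomes, a T-box regulator of streak and endoderm, read 9.78 in the knockout embryoid body and 5.53 in the knockout teratoma, 19.1-fold lower, against 8.06 and 6.39 in control cells. Mixl1, a homeobox gene of the streak, read 6.76 and 4.19 and lost its call with the floor at the 65th percentile. Fgf5, the epiblast growth factor, read 9.13 and 4.05, at least 17.0-fold lower. Visceral endoderm, the yolk sac layer that feeds the embryo, had 11 of 17 genes lower and none higher (median -1.94, against -2.79 in control cells). Here 7 of the 17 were above the floor in the embryoid body alone and could only be lower. Among the lower genes were Gata6, at least 25.1-fold lower, and Apob, which carries lipid (7.69 and 3.74). Afp, Ttr, Amn and Foxa1 were within 2-fold, at differences of 0.66, -0.14, 0.84 and 0.92. Among named genes above the floor on both arrays, Cyp26a1, which breaks down retinoic acid, lay furthest below: it read 11.64 and 5.30, 81.0-fold lower, against 9.10 and 6.14 in control cells. Dkk1, a secreted Wnt inhibitor, read 9.84 and 5.42, against 8.37 and 6.80. Pluripotency genes did not move as a group in knockout cells, with 4 of 20 higher and 6 lower. With arrays centred on their median 2 were higher and 8 lower, and in the control pair 2 were higher and 10 lower. Pou5f1, encoding Oct4, read 8.84 and 7.52 in knockout cells and 8.40 and 6.22 in control cells. Of 11 embryonic RNA-binding and growth genes 10 were lower (median -3.33), including Lin28a, which blocks let-7 maturation (11.72 and 6.90), and Hmga2, a chromatin protein of fetal growth (12.26 and 7.72). Lin28a, Trim71 and Sall4, all lower, are counted in both this list and the pluripotency list. Hox genes, which pattern the body axis, had 5 of 13 higher and none lower, whereas in the control pair 2 of 15 were higher and 6 lower (medians 0.62 and -0.66). All 5 were above the floor in the tumour alone, and with the floor at the 65th percentile none of 6 measured Hox genes was called. Hoxa5 was at least 5.39-fold higher, although another of its probe sets gave -0.28.

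Signalling genes were lower more often than higher. Among 37 measured Wnt and FGF genes 16 were lower and 6 higher, and among 26 TGF-beta, BMP and activin genes 9 were lower and 5 higher. The higher counts were near or under the 19.8% of all measured genes. Fgf8, a streak growth factor, was at least 18.8-fold lower, and Bmp4, a mesoderm-inducing ligand, read 9.67 and 6.55. Inhbb, an activin subunit, read 3.65 and 8.38, and the Wnt pathway protein Dkk3 read 4.93 and 8.79. Of the epithelial-mesenchymal factors, Zeb1 and Zeb2, repressors of E-cadherin, were 4.98-fold and 5.48-fold higher while Twist1 was 3.50-fold lower. Imprinted genes went both ways, 9 of 22 higher and 7 lower. Igf2, the fetal growth factor, read 13.19 and 10.28, the placental growth restrictor Phlda2 was at least 30.8-fold lower, and the noncoding RNA Meg3 read 10.02 and 13.27.

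Genes of growth were mostly lower and those of the respiratory chain were level. All but 1 of 28 measured cell cycle genes were lower, 27 in all, with a median of -2.06 in knockout and -1.65 in control cells. Aurka, a mitotic kinase, read 9.30 in the knockout embryoid body and 5.82 in the knockout teratoma, 11.1-fold lower, and Cdk1, which drives entry into mitosis, read 10.89 and 8.25. Each was lower in both genotypes. Of 34 minichromosome maintenance, ORC and replication factor genes 28 were lower, and of 21 centromere protein genes 17. Of the inhibitors of the cycle and p53 targets, 9 of 19 were lower and 1 higher, and Cdkn1c, the imprinted inhibitor p57, was 13.5-fold lower. Ribosome biogenesis genes were lower in 18 of 22 cases (median -1.25) and cholesterol synthesis genes in 11 of 15 (median -1.32). By contrast, none of 26 respiratory chain genes reached 2-fold in either direction (median -0.06), and of 16 ribosomal protein genes only Rps6 did, at -1.46, with its other probe set at -0.04. Hypoxia and glycolysis genes had 9 of 25 higher and 4 lower, the lower count being under the 19.8% of all measured genes. Adm, a vasodilator peptide, read 5.45 and 8.95, and Car9, a carbonic anhydrase of hypoxic tissue, was at least 4.54-fold higher. The glycolytic enzyme Pkm was 3.09-fold lower. The hypoxia element ACGTGC occurred upstream of 10 of 23 genes of that list with a promoter in the table, against 5.63% of all genes. The CCAAT box occurred upstream of 17 of 23 cell cycle genes and 11 of 11 cholesterol genes with one, against 37.5% of all genes. Capitals mark it on either strand before Aurka (chr2:172370571-172370646, minus strand) and Idi1, an enzyme of isoprenoid synthesis (chr13:8885536-8885605, plus strand), and mark the hypoxia element before Car9 (chr4:43506982-43507025, plus strand).
Aurka: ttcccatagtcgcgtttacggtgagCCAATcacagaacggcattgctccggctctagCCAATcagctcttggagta
Idi1: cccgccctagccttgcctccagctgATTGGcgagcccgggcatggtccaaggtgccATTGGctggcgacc
Car9: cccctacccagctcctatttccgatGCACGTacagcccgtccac

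**Figure D4:**
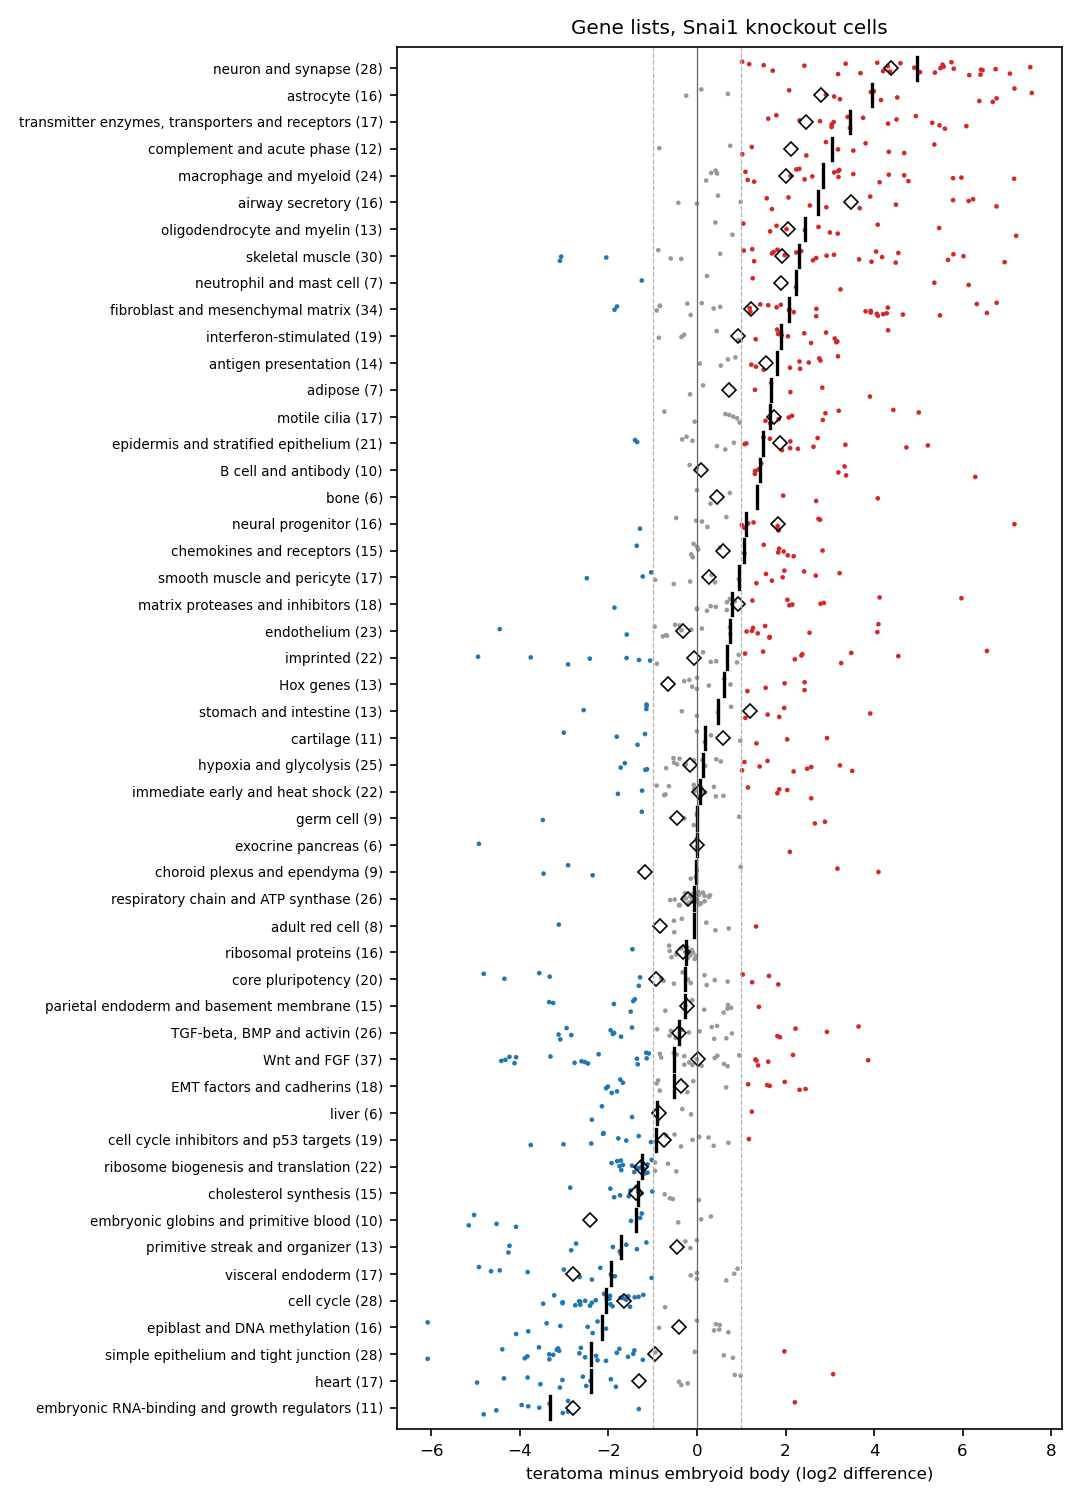
Teratoma minus embryoid body differences (log2) of the measured genes of each list with 5 or more (number measured in brackets) in knockout cells. Points are genes, red for 2-fold or more higher and blue for lower, the bar is the knockout median and the diamond the control median; nervous system lists lie at the top and embryonic, heart and simple epithelium lists at the bottom.

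The control pair shares no array with the knockout pair. Over the 12600 genes measured in both, the differences had a Pearson correlation of 0.89 and a Spearman correlation of 0.87, across genes, which are not independent replicates. Of the genes higher in the knockout pair 69.6% had the same call in the control pair, and these were 85.1% of the control's higher genes. For lower genes the shares were 68.3% and 71.3%. The call was opposite for 11 of the higher and 7 of the lower genes. Among genes above the floor on all 4 arrays, S1pr3, a sphingosine phosphate receptor, had one of the largest gaps: it read 4.82 and 11.09 in knockout cells and 8.23 and 10.19 in control cells. Alas2, the first enzyme of red cell heme synthesis, read 5.28 and 5.99 against 9.37 and 5.68, and Ttr, a thyroid hormone carrier of yolk sac endoderm and choroid plexus, read 11.88 and 11.74 against 13.60 and 9.19. On the opposite side, Fzd5, a Wnt receptor, read 9.94 and 5.82 against 8.08 and 6.75, Isl1, a regulator of heart progenitors and motor neurons, read 10.43 and 7.85 against 8.86 and 9.36, and Pga5, a pepsinogen, read 11.06 and 6.92 against 9.74 and 9.30. In all 6 genes the embryoid bodies differed by more than 1 log2 unit between genotypes. None of these gaps was tested.

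**Figure D5:**
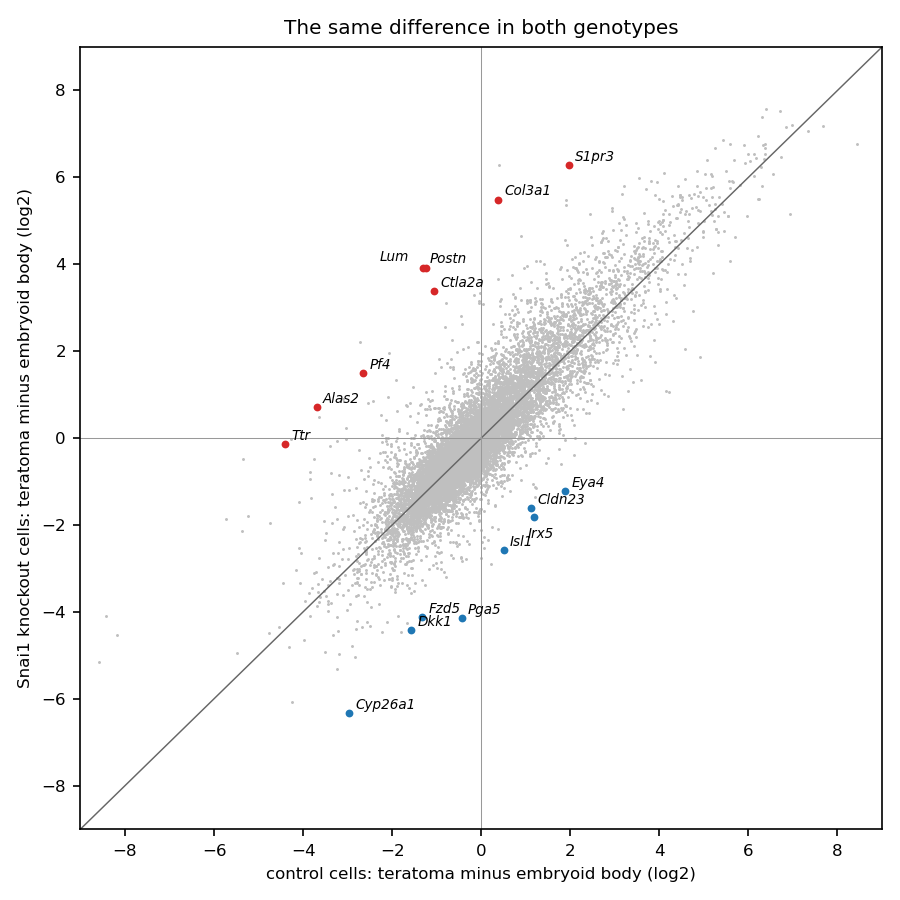
Teratoma minus embryoid body difference in control cells (x axis) and in Snai1 knockout cells (y axis), both log2, for the 12600 genes measured in both pairs, bounds included. Named genes are the 8 furthest above (red) and 8 furthest below (blue) the line of equal difference among genes above the floor on all 4 arrays.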

How the data were processed

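The data are 4 Affymetrix mouse arrays, 1 for each of 4 groups. The authors deposited log2 values, made with RMA from the affy package per the submitters' processing notes. The sources used here name no version and do not state joint normalization of the arrays. Of 45101 probe sets, 64 controls, 932 naming several genes and 9160 naming none were left out. Of the 34945 others, 34741 matched a RefSeq gene. Each gene took its brightest probe set by mean over the 4 arrays. Differences, floors (the 50th percentile of each array) and calls were computed in Python 3.11.15 with pandas 2.3.3 and numpy 2.4.6 and tested on simulated data. The number of arrays limits the precision, and no test was possible. Members and the 54 gene lists were chosen with earlier results of these data known. Named genes are the Snail family, the 15 largest differences each way, the 10 largest bounds each way, up to 8 per list, defining markers, pairs of early and late members, and the 8 largest gaps each way between the genotypes' differences; clone names were passed over. The text names a selection of these. Alternatives were other scalings, floors, probe set rules and fold thresholds.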

Additional observations from a re-analysis of the deposited data

Results flagged for a closer look

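For 11 named genes the knockout and control pairs were called 2-fold in opposite directions, each pair being 1 array against 1, and the difference was not tested. Postn and Lum, matrix proteins, were both higher by 3.92 in the knockout pair and lower by -1.30 and -1.25 in the control pair. Ctla2a, a protease inhibitor, gave 3.38 and -1.06. Pf4, a platelet chemokine, gave 1.5 and -2.65, and Acp5, the osteoclast phosphatase, gave 1.95 as a bound against -2.07. In the other direction, Lgr5, a receptor of intestinal stem cells, gave -1.14 against 1.21, and Olfm4, a secreted glycoprotein of the gut, gave -1.14 against 1.24, both bounds for Olfm4. Cxcr4, the receptor for Cxcl12, gave -1.36 against 1.21. Eya4, a transcriptional coactivator, gave -1.22 against 1.88, Irx5, a homeobox gene, -1.81 against 1.19, and Cldn23, a claudin, -1.60 against 1.11. Some of these knockout calls depend on the processing. Acp5, Pf4 and Eya4 lost theirs with the floor at the 65th percentile, and Eya4 and Lgr5 with the mean of probe sets.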

How the results depend on the processing

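No paired analysis was possible because each group has 1 array and the labels carry no replicate numbers. The counts at 2-fold stayed within 1.5 times under every scaling, floor and probe set rule tried. Beyond that range, 207 genes were at least 8-fold lower with arrays centred on the median. With the floor at the 65th percentile, 308 genes were at least 8-fold higher and 68 lower, and with the mean of a gene's probe sets 337 were at least 8-fold higher. At a 1.5-fold threshold 4295 genes were lower, and at 4-fold 1272 were higher and 538 lower. Of 359 named genes called at 2-fold, 13 lost the call with centred arrays, 10 with quantile normalization and 2 with a common floor; 41 of 341 lost it with the higher floor and 31 of 347 with the mean of probe sets. Without probe sets that can share sequence with other genes, 8 of 303 lost it (Hes5, Hnf4a, Klf6, Krt14, Lss, Ndrg1, Pdgfrb and Pfkl), and Pfkl turned, at 0.84. The list medians that changed sign were those of cartilage, hypoxia and immediate early genes when centred, of stomach, eye, T cell, X and Y and immediate early genes under other floors or the probe set mean, and of neutrophil genes with no floor (-0.0235). Signal near the floor limits what can be said of low genes, and 297 bounds pointed to no order and were set to 0.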

Other observations

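Gene families grouped by symbol were also set side by side in the knockout teratoma and embryoid body. Over all measured genes 19.8% were higher and 19.8% lower. Of 29 measured sodium and calcium channel genes, 19 were higher and none lower (median 1.81); Scn2a, a neuronal sodium channel, had the highest value at 5.57. Of 20 protocadherin genes, which encode neuronal adhesion proteins, 12 were higher and 1 lower, and of 32 collagen chain genes 15 were higher and 4 lower. Mitochondrial ribosomal protein genes had 28 of 76 lower and none higher (median -0.85), nuclear pore genes 13 of 19 lower, and RNA polymerase subunit genes 13 of 25 lower. Of 38 proteasome subunit genes 3 were higher and 5 lower (median -0.67), both under the shares over all measured genes. The highest were Psmb8, Psmb9 and Psmb10, the subunits of the immunoproteasome.

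Transcripts of the sex chromosomes were present in both sample kinds. Eif2s3y, a Y-linked translation factor gene, read 8.02 in the knockout embryoid body and 7.63 in the knockout teratoma. Xist, the RNA of the inactive X chromosome, read 5.51 and 8.12 in knockout cells and 5.03 and 7.32 in control cells. Of 9 measured germ cell genes 2 were higher, Stra8 (4.77 and 7.66) and Dazl (3.72 and 7.40), close to the 19.8% of all measured genes. Another 2 were lower, Prdm1 (8.88 and 5.39) and Kit (9.37 and 8.13).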
